A study of Mus musculus with 4 samples.

Results

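Genes of cholesterol and fatty acid synthesis were followed in mouse mammary colonies grown with or without Wnt3A, a secreted ligand of the canonical Wnt pathway. The list held 33 genes named for their textbook roles in these pathways, and 32 of them were measured, out of 18193 genes in all. They were 17 of 18 enzymes of the sterol branch, all 11 enzymes of the fatty acid branch, and 4 genes for regulators and a sterol carrier. Acat2 was not analysed here. The cells came from virgin female CD1 mice 8 to 12 weeks old and were sorted as Lin-, CD24+ and CD29hi, a gate that enriches for mammary stem cells. They grew as colonies in growth factor reduced Matrigel, a basement membrane gel, under medium with insulin, transferrin and selenium and 50 ng/ml EGF. Both groups shared these conditions and differed in having either 200 ng/ml purified Wnt3A or its vehicle, CHAPS in PBS (written vesicle in some labels), from start to end. RNA was taken from second-passage colonies after 6 to 7 days and hybridised to 4 Affymetrix arrays, of which controls 1 and 2 had vehicle and Wnt3A 1 and 2 had the ligand. Separate animals or cultures within a group are not stated in the labels, so the p-values measure only the spread between these arrays, which may be technical.

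Cholesterol is built from acetyl-CoA through mevalonate, isoprenoid units and squalene, which is closed into a ring and then trimmed and reduced. Fatty acids are built from the same acetyl-CoA by carboxylation, chain synthesis, elongation and desaturation. Most of these genes are transcribed under the SREBP factors, encoded by Srebf1 and Srebf2, which bind sterol regulatory elements in promoters, commonly beside NF-Y, a factor that recognises CCAAT boxes. When sterols are plentiful, INSIG proteins hold the SREBP precursors in the endoplasmic reticulum. Mammary epithelium is known for strong lipid synthesis in lactation, when it makes milk fat.

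Promoters are shown for 4 enzymes, none of them a gene with a negative difference. Nsdhl and Fasn had the largest positive differences of their branches, and Ebp was the other member with an unadjusted p below 0.05. Hmgcs1, with a difference near 0, held the only match to the sterol regulatory element form TCACNCCAC among the windows on hand. Sequences are the 250 bases before the RefSeq start, 5′ to 3′ on the gene's strand, build GRCm38.p6. Capitals mark CCAAT or its complement ATTGG, and in Hmgcs1 also 1 match to TCACNCCAC.
Nsdhl, chrX:72918271-72918520, plus strand: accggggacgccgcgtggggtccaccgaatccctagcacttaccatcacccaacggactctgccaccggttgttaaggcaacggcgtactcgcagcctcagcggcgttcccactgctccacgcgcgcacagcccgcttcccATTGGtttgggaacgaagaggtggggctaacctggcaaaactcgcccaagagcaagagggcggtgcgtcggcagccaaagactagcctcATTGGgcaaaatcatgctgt
Ebp, chrX:8193513-8193762, minus strand: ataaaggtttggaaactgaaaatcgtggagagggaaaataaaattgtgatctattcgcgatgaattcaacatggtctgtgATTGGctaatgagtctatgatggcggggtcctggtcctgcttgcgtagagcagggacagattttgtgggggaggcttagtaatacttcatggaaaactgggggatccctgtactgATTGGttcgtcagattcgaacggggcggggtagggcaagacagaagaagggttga
Fasn, chr11:120824548-120824797, minus strand: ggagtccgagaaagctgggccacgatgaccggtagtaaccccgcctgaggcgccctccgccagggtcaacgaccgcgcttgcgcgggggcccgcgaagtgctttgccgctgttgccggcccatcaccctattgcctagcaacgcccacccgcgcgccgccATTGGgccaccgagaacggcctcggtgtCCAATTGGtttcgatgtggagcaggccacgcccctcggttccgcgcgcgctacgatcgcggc
Hmgcs1, chr13:119690101-119690350, plus strand: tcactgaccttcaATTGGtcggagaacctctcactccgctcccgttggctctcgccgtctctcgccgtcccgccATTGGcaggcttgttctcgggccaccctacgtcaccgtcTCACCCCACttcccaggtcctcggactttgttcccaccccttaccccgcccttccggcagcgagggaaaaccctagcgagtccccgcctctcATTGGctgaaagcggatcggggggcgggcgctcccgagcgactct
Promoter windows were on hand for 25 of the measured members, 31 windows in all, since some genes have several starts. Fdft1, Fdps, Sqle, Scd1, Scd2, Fads1 and Stard4 had no window. The CCAAT box (CCAAT or ATTGG) stood in 22 of the 31 windows (71.0%), against 33.8% of the 32851 windows of all genes. By branch it stood in 14 of 17 sterol windows, 4 of 9 fatty acid windows and 4 of 5 regulator windows. The sterol regulatory element form TCACNCCAC, read on both strands, stood in 1 of 31 windows (3.23%), against 1.05% of all windows. The E-box CACGTG stood in 5 of 31 (16.1%), against 6.02%, and CACCC, with its complement GGGTG, in 19 of 31 (61.3%), against 52.0%. A CACCC match can overlap the sterol element form. These matches describe letters within these windows and were not tested as binding sites.

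Values are RMA log2 signals from which each probe set's median over the 4 arrays had been subtracted, so they show differences between arrays and hold no absolute level. A gene's value averages its probe sets. Most members were slightly higher with Wnt3A: their median difference was 0.18 log2 units, against 0.00 for all genes tested, and 27 of 32 had a higher mean, against 50.1% of all genes. Both Wnt3A arrays lay above both controls for 12 members (37.5%), against 17.0% of all genes, and below both for 2, against 17.5%. With the additional demand of at least 0.4 log2 units, 3 members remained (Fasn, Nsdhl and Hsd17b7), against 4.43% of all genes. No member passed the test: limma with Benjamini-Hochberg adjustment called 0 of the 32 at an adjusted p below 0.05, with 0.0% of all genes called, and the smallest adjusted p of a member was 0.52. At an unadjusted p below 0.05 it picked 3 members as higher, against 3.55% of all genes, and 0 as lower, against 3.82%. The 95% intervals of 29 of 32 members included 0. All 32 members had at least 1 probe set in the estimated level band of log2 8 to 16, against 57.7% of all genes. A gene with more probe sets has more chances to reach that band. Counted by probe set, 64 of the members' 74 lay in it, against 41.1% of all probe sets.

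**Figure D1:**
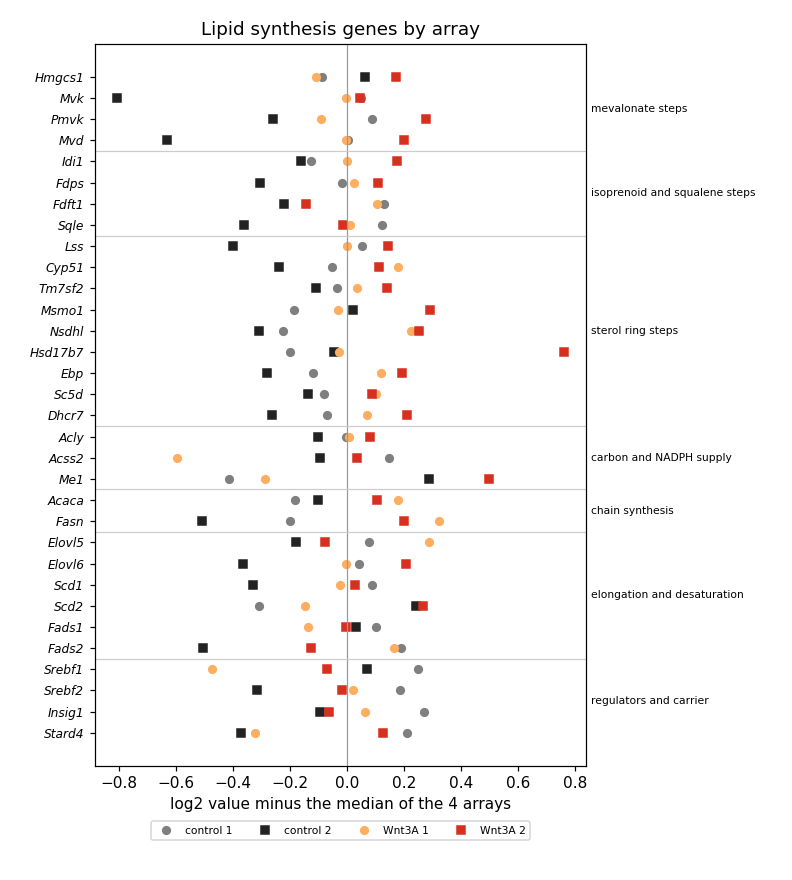
Horizontal axis, log2 value relative to the median of the 4 arrays (mean over a gene's probe sets); rows, the 32 measured genes in pathway order; points, single arrays by group. Control 2 is the lowest array in 23 rows, against 30.6% of all genes, most clearly for Mvk at -0.80 and Mvd at -0.63. Wnt3A 2 is the highest in 16 rows (50.0%), against 18.4% of all genes.

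The mevalonate steps had 4 measured genes with a median difference of 0.29. Both Wnt3A arrays lay above both controls for 0 of them, against 17.0% of all genes. Mvk, the mevalonate kinase gene, read 0.048 and -0.80 in the control arrays, and -0.0044 and 0.046 under Wnt3A. Mvd, which encodes the decarboxylase that ends this stretch, read 0.0034 and -0.63 in the control arrays, and -0.0034 and 0.20 under Wnt3A. For both genes control 2 alone was low and control 1 lay beside the Wnt3A arrays. Their differences were 0.40 ± 0.30 (SE, limma) and 0.41 ± 0.25, and without control 2 they came to -0.028 and 0.095. Pmvk, the next kinase after Mvk, differed by 0.18 ± 0.20, with Wnt3A 1 at -0.089 below control 1 at 0.089. Hmgcs1, the HMG-CoA synthase gene whose promoter is printed above, read -0.087 and 0.063 in the control arrays, and -0.11 and 0.17 under Wnt3A. Its groups overlapped, with a difference of 0.043 ± 0.15 and a 95% interval of -0.36 to 0.45.

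The isoprenoid and squalene steps had 4 genes with a median of 0.17. Idi1, which interconverts the isoprene units, read -0.13 and -0.16 in the control arrays, and 0.0017 and 0.18 under Wnt3A, a difference of 0.23 ± 0.13. Fdps, the farnesyl diphosphate synthase gene, read -0.016 and -0.30, and 0.025 and 0.11 under Wnt3A, a difference of 0.23 ± 0.15. In both genes the Wnt3A arrays lay above both controls, though Wnt3A 1 and control 1 of Fdps were only 0.041 log2 units apart. Each gene also had a probe set with overlapping groups, differing by 0.073 for Idi1 and 0.072 for Fdps. Fdft1, squalene synthase, showed the smallest difference of the sterol branch, 0.026 ± 0.18, with 0.13 and -0.22 in the control arrays and 0.11 and -0.14 under Wnt3A. Sqle, squalene epoxidase and a rate-limiting enzyme, read 0.12 and -0.36, and 0.012 and -0.012 under Wnt3A, so control 1 was the highest array and control 2 the lowest. Its difference of 0.12 ± 0.20 became -0.12 without control 2.

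The ring steps, which turn squalene epoxide into cholesterol, held most of the separated genes: for 7 of 9 both Wnt3A arrays lay above both controls, against 17.0% of all genes, and the median difference was 0.29. Nsdhl, a dehydrogenase that helps remove methyl groups from the ring, read -0.22 and -0.31 in the control arrays, and 0.22 and 0.25 under Wnt3A. Its arrays fell into 2 tight groups, and the difference of 0.51 ± 0.12 (1.42-fold, 95% interval 0.20 to 0.81, adjusted p = 0.52) stayed between 0.46 and 0.55 when any 1 array was left out. Ebp, a sterol isomerase, read -0.12 and -0.28, and 0.12 and 0.19 under Wnt3A, a difference of 0.36 ± 0.13 with an interval of 0.022 to 0.69 (adjusted p = 0.65). Dhcr7, a reductase at the end of the route, read -0.070 and -0.26, and 0.070 and 0.21 under Wnt3A, and differed by 0.31 ± 0.14. Cyp51, the lanosterol demethylase, read -0.051 and -0.24, and 0.18 and 0.11 under Wnt3A, and differed by 0.29 ± 0.13. In these 4 genes control 2 was the lowest array, and control 1 was also below both Wnt3A arrays. For Cyp51 that was so for the average of its probe sets, and those differing by 0.11 and 0.28 had overlapping groups.

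Among the other ring enzymes, Hsd17b7, a sterol ketoreductase, read -0.20 and -0.045 in the control arrays, and -0.026 and 0.76 under Wnt3A. In this average Wnt3A 2 alone was high, and the difference of 0.49 ± 0.29 was 0.096 without it and 0.88 without Wnt3A 1. The probe sets differed here, as those at 0.80 and 0.78 had Wnt3A 1 at 0.29 and 0.25, above both controls. Sc5d, a desaturase, differed by 0.20 ± 0.11 and Tm7sf2, a sterol reductase, by 0.16 ± 0.12, both with separated groups. Lss, which closes the ring, read 0.053 and -0.40, and 0.00 and 0.15 under Wnt3A, so control 1 lay between the Wnt3A arrays. Its difference of 0.25 ± 0.19 was 0.020 without control 2. Msmo1, a methyl sterol oxidase, read -0.18 and 0.020, and -0.029 and 0.29 under Wnt3A, a difference of 0.21 ± 0.17 that was 0.053 without Wnt3A 2. Over the whole sterol branch the mean was higher with Wnt3A for 17 of 17 enzymes, against 50.1% of all genes, from 0.026 to 0.51, with a median of 0.23. The groups separated higher for 9 (52.9%), against 17.0% of all genes, and lower for 0, against 17.5%.

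In the fatty acid branch both enzymes that make the chain were separated higher, against 17.0% of all genes. Fasn, the fatty acid synthase whose promoter is printed above, read -0.20 and -0.51 in the control arrays, and 0.32 and 0.20 under Wnt3A. Its difference of 0.61 ± 0.16 (1.53-fold, 95% interval 0.20 to 1.03, adjusted p = 0.55) was the largest of the 32 members and lay between 0.46 and 0.77 when any 1 array was left out. Acaca, the acetyl-CoA carboxylase that supplies malonyl-CoA, read -0.18 and -0.10, and 0.18 and 0.10 under Wnt3A, a difference of 0.28 ± 0.12 with an interval of -0.027 to 0.60. Control 2 was the lowest array for Fasn, and control 1 for Acaca.

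Genes that supply carbon and reducing power were mixed. Acly, which releases acetyl-CoA from citrate, read -0.0019 and -0.099, and 0.0067 and 0.083 under Wnt3A, a difference of 0.095 ± 0.12. Its groups separated, but control 1 and Wnt3A 1 nearly coincided. Acss2, which makes acetyl-CoA from acetate, was the lowest of the fatty acid branch at -0.31 ± 0.25. It read 0.15 and -0.095 in the control arrays, and -0.59 and 0.035 under Wnt3A, so Wnt3A 1 alone was low, and without that array the difference was 0.0089. Me1, the malic enzyme that makes NADPH, read -0.41 and 0.29, and -0.29 and 0.50 under Wnt3A. Both arrays numbered 1 were low and both numbered 2 high, and the difference was 0.17 ± 0.37.

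The 6 elongases and desaturases had a median difference of 0.14, with 0 separated higher, against 17.0% of all genes, and 1 lower, against 17.5%. Elovl6, which elongates saturated chains, differed by 0.26 ± 0.19, and Elovl5, which elongates unsaturated ones, by 0.16 ± 0.19. Scd1 and Scd2, paralogous stearoyl-CoA desaturases, differed by 0.12 ± 0.18 and 0.092 ± 0.25, and whether their probe sets share signal was not tested. Fads2, the delta-6 desaturase, differed by 0.18 ± 0.27 and its neighbour Fads1, the delta-5 desaturase, by -0.14 ± 0.12. Fads1 read 0.10 and 0.030 in the control arrays, and -0.13 and -0.0046 under Wnt3A, and was the one enzyme of either branch separated lower, although neither of its 2 probe sets was separated on its own. Across the 11 enzymes of the branch, 9 had a higher mean with Wnt3A, against 50.1% of all genes, 3 (27.3%) were separated higher, against 17.0% of all genes, and the median difference was 0.16.

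**Figure D2:**
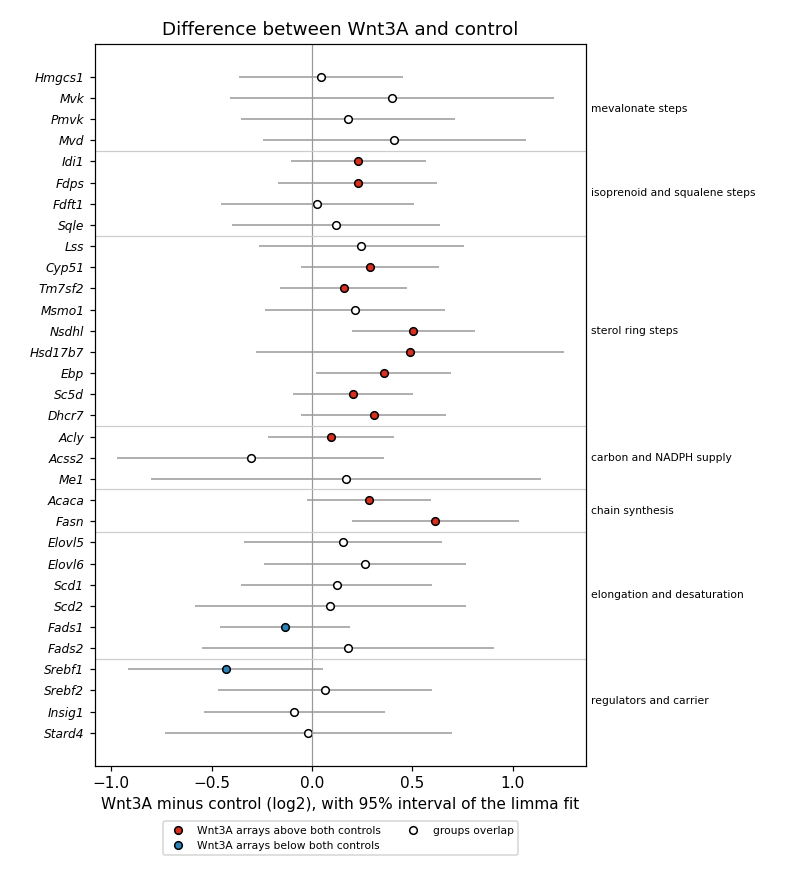
Horizontal axis, Wnt3A minus control in log2 units; rows, the 32 measured genes in pathway order; points, estimates with 95% intervals of the limma fit, coloured by whether the 2 Wnt3A arrays lie above, below or among the 2 controls. Of the 12 genes separated higher, 7 are ring-step enzymes, and only Nsdhl, Ebp and Fasn have intervals that exclude 0.

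Of the regulators and the carrier, 1 of 4 had a higher mean with Wnt3A, against 50.1% of all genes. Srebf1, the SREBP gene most tied to fatty acid synthesis, read 0.25 and 0.070 in the control arrays, and -0.47 and -0.070 under Wnt3A. Both Wnt3A arrays lay below both controls. The difference was -0.43 ± 0.18 with an interval of -0.92 to 0.056 (adjusted p = 0.73), and it was -0.23 without Wnt3A 1 and -0.63 without Wnt3A 2. Srebf2, the SREBP gene most tied to cholesterol synthesis, read 0.19 and -0.31, and 0.020 and -0.018 under Wnt3A, a difference of 0.066 ± 0.20 with an interval of -0.47 to 0.60. The Wnt3A arrays lay between the controls. Insig1, itself an SREBP target as well as the brake on the pathway, read 0.27 and -0.094, and 0.063 and -0.063 under Wnt3A, a difference of -0.089 ± 0.17 with an interval of -0.54 to 0.36. Stard4, a cytosolic sterol carrier, read 0.21 and -0.37, and -0.32 and 0.13 under Wnt3A, and differed by -0.019 ± 0.27. In all 4 of these genes control 1 was the highest array, against 5555 of all 18193 genes.

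The sterol branch was set against the fatty acid branch by their medians. In control 1 the sterol median was -0.051 and the fatty acid median 0.043, and in control 2 they were -0.26 and -0.10. In Wnt3A 1 they were 0.012 and -0.0028, and in Wnt3A 2 they were 0.17 and 0.083. Sterol minus fatty acid was thus negative in both controls, at -0.094 and -0.16, and positive in both Wnt3A arrays, at 0.015 and 0.089. Its mean was -0.12 in the controls and 0.052 with Wnt3A, a shift of 0.18 beside a pooled SD of 0.048 between arrays of a group. The shift was not tested, because 2 against 2 arrays cannot give an exact two-sided permutation p below 0.33. Taken as medians of the gene differences, 0.23 for the sterol branch exceeded 0.16 for the fatty acid branch by 0.076.

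Each Wnt3A array was also set against each control on its own. Against control 1, the sterol median was 0.069 for Wnt3A 1 and 0.19 for Wnt3A 2, and against control 2 it was 0.33 and 0.41. The fatty acid medians were 0.0086 and 0.085 against control 1 and 0.28 and 0.21 against control 2. The regulators and carrier had medians of -0.37 and -0.26 against control 1 and 0.10 and 0.16 against control 2. The size of the difference thus depended on which control was used, and for the regulators its direction did too. Medians over all genes were 0.00069 and -0.065 against control 1 and 0.065 and -0.0012 against control 2, in the same order. Control 2 was the lowest of the 4 arrays for 23 of 32 members (71.9%), against 30.6% of all genes.

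Without control 2, the median difference of all members was 0.072, of the sterol branch 0.12 and of the fatty acid branch 0.047. In that case both Wnt3A arrays lay above control 1 for 10 of 17 sterol enzymes (58.8%) and 5 of 11 fatty acid enzymes (45.5%), against 28.3% of all genes. They lay below control 1 for 3 of 17 sterol enzymes, 4 of 11 fatty acid enzymes and all 4 regulators and carrier, against 38.6% of all genes. Without control 1 the branch medians were 0.37 and 0.25, and 25 of 32 members (78.1%) lay higher, against 38.9% of all genes. Without Wnt3A 1 the medians were 0.32 and 0.15 and 20 members (62.5%) lay higher than both controls, against 27.7%. Without Wnt3A 2 they were 0.17 and 0.098 and 13 members (40.6%) lay higher, against 39.1%, so there the members' share was close to that of all genes.

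**Figure D3:**
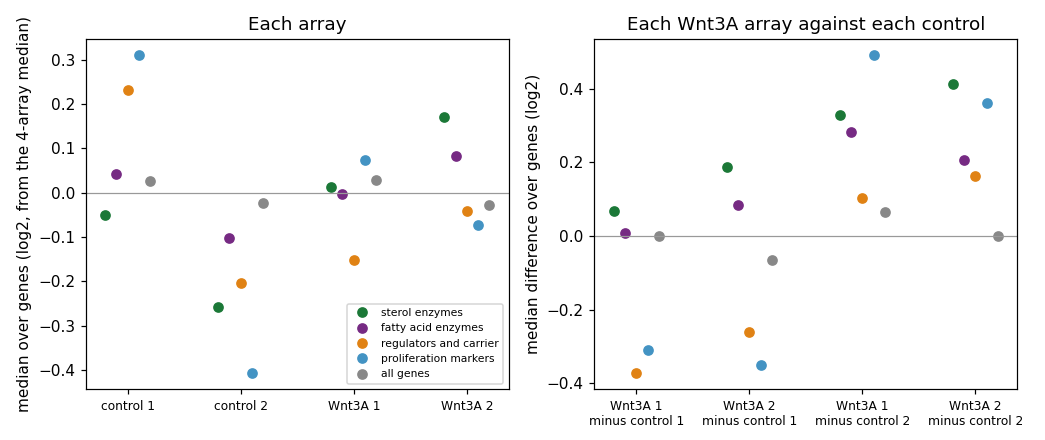
Left, vertical axis, median over the genes of a list of the log2 value in each array; right, median over genes of the log2 difference between each Wnt3A array and each control; colours, gene lists. Sterol enzymes (green) lie above 0 in all 4 pairs, from 0.069 to 0.41, and so do fatty acid enzymes (purple), from 0.0086 to 0.28. Proliferation markers (blue) and the regulators and carrier (orange) change sign between control 1 and control 2.

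Proliferation markers were also low in control 2: 6 of the 7 measured were lowest there, with a median of -0.41, and control 1 had a median of 0.31. Their median difference between the groups was 0.048, and against control 1 alone it was -0.31 and -0.35. Of these markers 0 were separated higher, against 17.0% of all genes, and 0 lower, against 17.5%. Mki67 (-0.18) and Cdk1 (0.13) differed most. Their part in the low lipid enzyme values of control 2 was not tested. In bulk RNA, fewer cells of a type and less RNA per cell cannot be told apart.

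Most members are read by more than 1 probe set on the same arrays. Of the 74 probe sets of the 32 genes, 58 had a higher mean with Wnt3A, against 51.7% of the 45037 probe sets on the array. Of the same 74, 26 were separated higher, against 17.4%, and 3 lower, against 16.3%. In the sterol branch 33 of 38 were higher and 16 separated higher, and in the fatty acid branch 21 of 29 were higher and 10 separated higher. Mvk and Mvd had 2 probe sets each that gave nearly one value (0.40 and 0.40 for Mvk, 0.38 and 0.44 for Mvd). Sc5d rested on 1 of 3 probe sets, at 0.60 against 0.027 and -0.017, and Acaca had 0.47 and 0.097. Hsd17b7 had probe sets at 0.80 and 0.78 with separated groups, and at 0.46 and -0.086 with overlapping ones. In the probe set at 0.46, Wnt3A 1 read -0.56 and Wnt3A 2 read 1.49. Acss2 had -0.72, -0.44 and 0.25. Msmo1 had 0.34 with separated groups and 0.086, in the lowest level band, with overlapping ones. Of the Hmgcs1 probe sets, the one at 0.20, in the 4 to 8 band, spread most, from -0.59 in control 1 to 0.95 in Wnt3A 2. Nsdhl, Ebp, Dhcr7, Fasn and Srebf1 had a single probe set each and so no second reading.

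**Figure D4:**
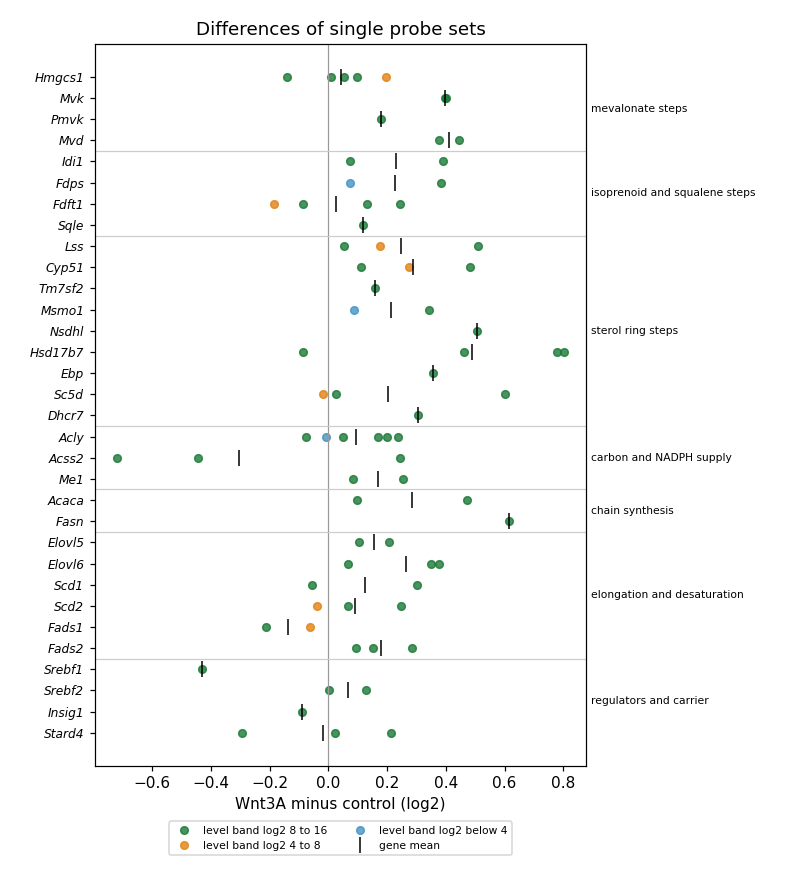
Horizontal axis, Wnt3A minus control in log2 units for each of the 74 probe sets; rows, the 32 genes in pathway order; colours, estimated level band; black ticks, gene means. Probe sets of Acss2 run from -0.72 to 0.25 and those of Hsd17b7 from -0.086 to 0.80, while the 2 of Mvk coincide.

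Other genes of sterol handling were centred near 0. Of 27 listed, 20 were measured, with a median difference of -0.0029, and 1 was separated higher, against 17.0% of all genes, and 3 lower, against 17.5%. Lpcat3, which remodels phospholipids, was the one separated higher (0.26 ± 0.12). Acat1, which makes and splits acetoacetyl-CoA in mitochondria, read 0.52 and 0.18 in the control arrays, and -0.60 and -0.18 under Wnt3A, a difference of -0.74 ± 0.21. Sp1, a transcription factor that works beside SREBP, differed by -0.41 ± 0.16. Abca1, the cholesterol efflux pump, read 0.059 and 0.48, and -0.045 and -0.029 under Wnt3A, a difference of -0.30 ± 0.18 that was -0.096 without control 2.

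Among 35 listed other genes of fatty acid synthesis and handling, 32 were measured. Their median difference was 0.085, with 10 (31.2%) separated higher, against 17.0% of all genes, and 6 lower, against 17.5%. Elovl4, which makes very long chains for the epidermal barrier, had the largest difference, 2.31 ± 0.65, with -1.50 and -0.49 in the control arrays and 0.49 and 2.14 under Wnt3A. Fads3, a desaturase relative, differed by 0.85 ± 0.29. Mid1ip1, which promotes acetyl-CoA carboxylase activity, read -0.25 and -0.39, and 0.55 and 0.25 under Wnt3A, a difference of 0.72 ± 0.16. Me3, a mitochondrial malic enzyme, read 0.82 and 0.090, and -0.090 and -0.95 under Wnt3A, a difference of -0.98 ± 0.39. Without Wnt3A 2 the differences of Elovl4 and Me3 were 1.49 and -0.55, and without Wnt3A 1 that of Fads3 was 0.45. None of these 4 passed the test after adjustment.

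Fatty acid oxidation, the opposing pathway, had 10 measured genes with a median of -0.11, of which 0 were separated higher, against 17.0% of all genes, and 4 lower, against 17.5%. Cpt1a, the gate for fatty acid entry into mitochondria, read 0.21 and 0.97 in the control arrays, and -0.29 and -0.23 under Wnt3A, a difference of -0.85 ± 0.28. Ppargc1a, a coactivator of mitochondrial genes, read 0.18 and 0.65, and -0.53 and -0.18 under Wnt3A, a difference of -0.77 ± 0.23. Both were highest in control 2, the array in which most synthesis genes were lowest, and without it they differed by -0.47 and -0.53. Ppara (-0.20 ± 0.14) and Etfdh (-0.16 ± 0.12) made up the 4.

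Markers of other lipid-rich or neighbouring cells were measured in the same arrays. Adipocyte markers had a median difference of 0.084 over 10 genes, with 1 separated higher, against 17.0% of all genes. The array medians of this list ran from -0.14 in control 2 to 0.069 in control 1. Their largest differences were those of Cebpa (0.26) and Pparg (-0.14), and 3 of 10 reached the upper level band, against 57.7% of all genes. Sebaceous markers had a median of -0.045 over 7 genes, with 2 separated lower, against 17.5% of all genes, and Elovl3 (-0.45) and Cidea (0.31) the largest. For the milk and alveolar list of 10 the median was -0.14. The array medians of that list were 0.24 and -0.15 in the controls and 0.22 and -0.43 under Wnt3A. Csn1s1 (-2.03) and Lalba (-1.54) differed most, both with overlapping groups. The mean was higher with Wnt3A for 4 of these 10, against 50.1% of all genes. Xdh (0.69) and Plin2 (0.40) were the 2 separated higher, against 17.0% of all genes, and 0 were separated lower, against 17.5%. Basal markers had a median of 0.18, with 8 of 10 in the upper band, Krt5 and Krt14 among them, and Oxtr (-1.39) and Myh11 (0.79) the largest. Luminal markers had a median of -0.29, with 10 of 10 in that band and Foxa1 (-2.34) and Krt19 (-1.71) the largest. Of the luminal list 1 was separated higher (Prom1, 0.50), against 17.0% of all genes, and 4 lower, against 17.5%. The mean was higher with Wnt3A for 3 of 10 luminal markers, against 50.1% of all genes. Squamous markers had the largest median of these lists, 1.27, with 7 of 10 separated higher, against 17.0% of all genes. Among them Krt1 (4.72) and Krt10 (3.14) were the largest. Fibroblast markers had a median of 0.089 (Pdgfra -0.76, Thy1 0.20), and endothelial and blood markers one of 0.044 (Cd68 0.28, Cd3e 0.16). Single arrays carried several of these values. Without Wnt3A 2, Krt1 differed by 2.05, Krt10 by 1.36 and Csn1s1 by -0.22. Without control 1, Csn1s1 differed by -0.57, Lalba by -0.46 and Myh11 by -0.17, and without control 2, Krt19 differed by -0.83. Squamous markers and sterol enzymes both had positive medians, and the part of the former in the lipid gene differences was not tested.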

How the data were processed

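RNA from 4 samples was hybridised to 1-colour Affymetrix mouse genome arrays. The deposited values are on a log2 scale; per the submitters' processing notes the authors used RMA (version not given in the sources used here). Every row had a median of 0 over the 4 samples (within 1e-06), so levels had been removed by a centring step not given in the sources used here. Of 45037 probe sets, 34945 had 1 symbol in the platform annotation, 932 several and 9160 none. Probe sets sharing a symbol were averaged into 1 value per gene. The 2 groups were tested against each other by lmFit and eBayes (limma 3.58.1, R 4.3.3, two-sided, Benjamini-Hochberg over 18193 genes), with no covariate and no filter on low values. Standard errors and 95% intervals are those of this fit, with 2 residual and 2.53 prior degrees of freedom. Level bands (log2 below 4, 4 to 8, 8 to 16) were estimated from the rounding step of the stored numbers. The fit and the bands were tested on simulated data. The number of arrays limits the precision: the median standard error was 0.15. Promoters came from RefSeq.

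The members, lists and promoter motifs were chosen with earlier results of these data known. All measured members are described, with array values for those with separated groups and a difference of at least 0.4, the extremes of each branch, Srebf1, Srebf2 and Insig1, and further members chosen after their values were seen. Of the other pathway lists, Abca1 and the 4 largest separated differences are named, and of each marker list the 2 largest. Xdh, Plin2 and Prom1 are also named because their groups were separated higher. Some genes of these lists are not reported here. Alternatives were the highest level band per gene, leaving out the lowest band, quantile normalization, subtracting array medians, robust eBayes, a replicate block, leaving out 1 array at a time, testing every probe set on its own, an adjusted p below 0.10, means for medians, and wider branches. Figures were drawn with matplotlib 3.10.9.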

Additional observations from a re-analysis of the deposited data

How the results depend on the processing

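No alternative called a gene: limma found 0 genes under every fit, and 645 higher and 695 lower at an unadjusted p below 0.05 in the fit reported. Both branch medians stayed above 0 under each alternative that recomputed them (level band, lowest band left out, quantile normalization, array medians, replicate block, each array left out, means, wider branches). With the highest level band per gene the sterol branch exceeded the fatty acid branch by 0.15, against 0.076 as reported. Leaving out 1 array moved that excess between 0.076 and 0.17, the sterol median between 0.12 and 0.37, the fatty acid median between 0.047 and 0.25, and the count of members separated higher between 13 and 25, partly because 3 arrays separate more easily than 4. When 1 array was left out, 18 of 32 members kept their sign and 14 changed it at least once. Ranges were -0.62 to 0.0089 for Acss2, -0.15 to 0.20 for Fdft1, -0.27 to 0.094 for Insig1 and -0.18 to 0.32 for Srebf2. With the replicate block 0 genes were called, the differences were the same by construction, and 1080 genes were higher and 1195 lower at an unadjusted p below 0.05. Across genes, control 1 minus control 2 correlated with Wnt3A 1 minus Wnt3A 2 (r = 0.445), but 2 pairs do not establish a pairing. Quantile normalization turned the sign of 1 member, and subtracting array medians of none.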
